A study of Homo sapiens with 16 samples.

Results

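Transcripts of 10 zinc transporter genes were measured by RNA-seq in the established human microglial line HMC3. The genes were the exporters SLC30A1, SLC30A5, SLC30A6, SLC30A7 and SLC30A9 and the importers SLC39A1, SLC39A6, SLC39A7, SLC39A10 and SLC39A14. They were chosen by symbol from the 25370 genes of the count table, with earlier results of these libraries in view, the low SLC30A1 levels under (2S,6S)-HNK among them. Which of these values led to the choice is not recorded. It was taken to be the changes against vehicle and the values of SLC30A1, which are therefore given as a description, with no p-value. A difference between compounds, or by E2 in the presence of a drug, equals the gap between the changes of its conditions against vehicle. The tests of members on such differences below are therefore not independent of the choice. All 10 passed the filter on low counts, as did 16004 of the 25370 genes. The 16 libraries came from 8 conditions of 2 libraries each, all treated for 24 h in medium without serum or phenol red. The conditions were vehicle, 17-beta-estradiol (E2) at 0.1 nM, ketamine, (2R,6R)-hydroxynorketamine and (2S,6S)-hydroxynorketamine at 400 nM each, and each of these 3 drugs together with E2. Ketamine is the parent drug, and (2R,6R)-HNK and (2S,6S)-HNK are metabolites of it that are mirror images of each other.

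Zinc is moved across membranes by 2 protein families. Most SLC30 proteins (ZnT) carry zinc out of the cytosol, either out of the cell or into the Golgi, vesicles and other compartments. SLC30A9 exports zinc from mitochondria. SLC39 proteins (ZIP) carry zinc into the cytosol. Metallothioneins are small cysteine-rich proteins that bind zinc and copper. The transcription factor MTF1 binds metal response elements when cytosolic zinc is high, and SLC30A1 and the metallothionein genes are known targets of it. SLC39A10 is known as a gene whose transcript is lowered by MTF1 when zinc is high.

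The promoters of SLC30A1 and SLC39A10, the members with the widest range of levels as a ratio, are shown first, with that of MT2A, the most abundant metallothionein transcript. Each runs 5′ to 3′ from 250 bases before the annotated start to 50 bases after it, in RefSeq on GRCh38.p14. Capitals mark the core of a metal response element, searched as TGCACNC or TGCGCNC on both strands, with overlapping matches counted separately. The SLC30A1 promoter lies on the minus strand at chr1:211579112-211579411, that of SLC39A10 (the second of 2 listed) on the plus strand at chr2:195656976-195657275, and that of MT2A on the plus strand at chr16:56608334-56608633.
SLC30A1: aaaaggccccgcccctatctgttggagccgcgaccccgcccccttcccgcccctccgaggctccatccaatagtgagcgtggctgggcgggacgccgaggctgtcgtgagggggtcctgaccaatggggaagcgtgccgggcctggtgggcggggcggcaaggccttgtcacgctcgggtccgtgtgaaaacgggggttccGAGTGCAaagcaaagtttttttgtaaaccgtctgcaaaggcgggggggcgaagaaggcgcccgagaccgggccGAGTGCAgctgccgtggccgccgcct
SLC39A10: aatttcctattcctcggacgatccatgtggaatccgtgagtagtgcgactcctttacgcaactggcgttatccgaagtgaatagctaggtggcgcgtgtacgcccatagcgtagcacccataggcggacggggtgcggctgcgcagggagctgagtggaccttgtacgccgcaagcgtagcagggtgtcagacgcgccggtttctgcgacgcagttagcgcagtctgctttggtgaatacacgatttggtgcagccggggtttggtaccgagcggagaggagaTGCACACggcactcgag
MT2A: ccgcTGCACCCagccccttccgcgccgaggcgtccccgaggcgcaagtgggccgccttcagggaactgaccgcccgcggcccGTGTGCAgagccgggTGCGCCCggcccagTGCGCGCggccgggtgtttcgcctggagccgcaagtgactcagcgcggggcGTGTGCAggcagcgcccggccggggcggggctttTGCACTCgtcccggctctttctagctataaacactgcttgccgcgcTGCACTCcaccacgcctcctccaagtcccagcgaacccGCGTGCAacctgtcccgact

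The SLC30A1 promoter held 2 cores, which begin 49 bases before the start and at base 25 after it, both read on the opposite strand. The second SLC39A10 promoter held 1, at base 34 after the start, and the first held none. MT2A held 8 and MT1X, another metallothionein gene, held 4. Of the 10 members, 9 had a promoter in the table (SLC39A14 is missing), and 5 of these held a core in at least 1 promoter. Besides SLC30A1 and SLC39A10 these were SLC30A6, SLC39A1 and SLC39A6 with 1 core each. SLC39A1, like SLC39A10, has 2 promoters listed, of which 1 held a core. Over all 35116 promoters of this length, 29.6% held at least 1 core, 8.60% at least 2 and 0.601% at least 4. These shares count promoters, whereas the 5 of 9 counts genes, so they are not on the same footing. A match of these letters is a description of the sequence and not a measured binding site.

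Each library held between 55300614 and 81646165 counts. Defining markers of microglia were largely absent: 7 of 10 (among them AIF1, CX3CR1, P2RY12, TMEM119 and PTPRC) were below 1 CPM (read count scaled to the normalised library total) in every library. The lysosomal marker CD68 lay between 17.4 and 23.4 CPM. The summed level of the microglial list ranged from 18.8 to 25.0 CPM across libraries. COL1A1 and PDGFRB, collagen and mural cell markers, reached 5344 and 293 CPM. From the same marker list, ACTA2 lay between 1.49 and 2.75 CPM, and COL3A1 and DCN were below 1 CPM in every library. Nothing in the labels shows that replicate libraries stem from separate cultures, so the tests below measure the spread between these libraries, which may be technical.

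Levels of different members were compared per kilobase of exon, as mean CPM per kilobase in the 2 vehicle libraries. SLC39A7, which releases zinc from the endoplasmic reticulum and Golgi, was the most abundant member, at 94.5 CPM per kilobase. It was followed by the plasma membrane importers SLC39A1 at 40.4, SLC39A14, which also carries iron and manganese, at 34.2, and SLC39A6 at 18.8. SLC30A5 and SLC30A6, which form one heteromeric exporter of the early secretory pathway, were at 9.48 and 9.10. SLC39A10, a plasma membrane importer, was at 5.19, SLC30A9, a mitochondrial zinc exporter, at 4.80, SLC30A7, a Golgi exporter, at 2.58, and SLC30A1, the plasma membrane exporter, at 2.26. The 4 most abundant members were all importers.

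**Figure D1:**
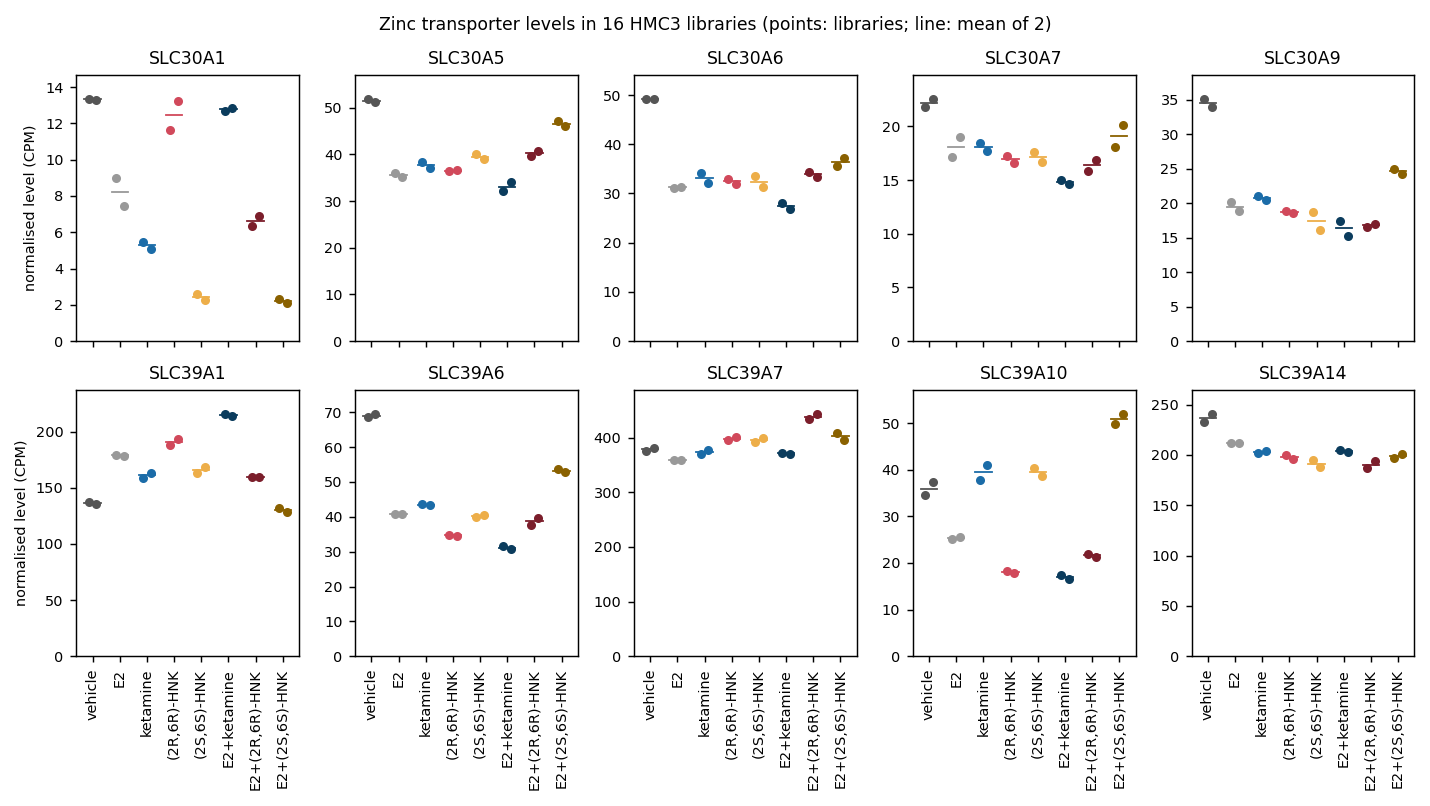
Normalised level (CPM, y axis from 0) of the 10 members in each of the 16 libraries, by condition (x axis); each point is a library and each line the mean of the 2 libraries of a condition. SLC30A1 ran from 2.11 to 13.4 CPM and SLC39A10 from 16.5 to 52.0 CPM, while SLC39A7 and SLC39A14 stayed within narrow bands of 359 to 443 and 187 to 241 CPM.

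SLC30A1 had the widest range of the 10 members as a ratio of the highest to the lowest library. It was at 13.4 and 13.3 CPM in the 2 vehicle libraries, 11.6 and 13.3 with (2R,6R)-HNK, and 12.7 and 12.9 with E2+ketamine. It was intermediate with E2 (9.0 and 7.44), E2+(2R,6R)-HNK (6.34 and 6.90) and ketamine (5.45 and 5.10). The lowest libraries were those of (2S,6S)-HNK, at 2.57 and 2.27 CPM, and of E2+(2S,6S)-HNK, at 2.32 and 2.11 CPM. In the order of means, the ranges of E2+ketamine and (2R,6R)-HNK overlapped, as did those of (2S,6S)-HNK and E2+(2S,6S)-HNK, and no other neighbours did. These levels rest on raw counts of 134 to 897 per library. In bulk RNA, a lower level can mean less transcript in each cell or fewer cells that express the gene, and these cannot be told apart.

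Against vehicle, SLC30A1 was 5.50-fold lower with (2S,6S)-HNK, a log2 fold change of -2.46 ± 0.12 (SE, 2 libraries against 2). It was 5.98-fold lower with E2+(2S,6S)-HNK (-2.58 ± 0.12) and 2.52-fold lower with ketamine (-1.34 ± 0.10). With E2+(2R,6R)-HNK, E2, (2R,6R)-HNK and E2+ketamine the log2 fold change was -1.01, -0.69, -0.10 and -0.06. The order of the conditions differed with E2: ketamine alone gave a low level and ketamine with E2 a level near that of vehicle. For (2R,6R)-HNK it was the reverse, and for (2S,6S)-HNK both levels were low. After a correction of each library for trends with GC content and exon length, the 2 changes under (2S,6S)-HNK were -2.02 and -2.35. Those under ketamine, E2+(2R,6R)-HNK and E2 were then -1.01, -0.54 and -0.28, and those under (2R,6R)-HNK and E2+ketamine became 0.38 and 0.55.

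SLC39A10 had the next widest ratio of highest to lowest library. Its level was 49.8 and 52.0 CPM with E2+(2S,6S)-HNK, 40.4 and 38.6 with (2S,6S)-HNK, 37.9 and 41.0 with ketamine, and 34.6 and 37.3 with vehicle. It was 25.2 and 25.7 CPM with E2, and 21.9 and 21.3 with E2+(2R,6R)-HNK. The lowest levels were those of (2R,6R)-HNK, at 18.2 and 17.8, and of E2+ketamine, at 17.4 and 16.5. Among neighbours in this order, the ranges of (2S,6S)-HNK and ketamine overlapped and no others did. The conditions with least SLC30A1 thus held the most SLC39A10, and 2 of the 3 conditions with most SLC30A1, (2R,6R)-HNK and E2+ketamine, held the least SLC39A10, while vehicle, high in SLC30A1, was not low in SLC39A10. Against vehicle, the log2 fold change of SLC39A10 was -1.0 with (2R,6R)-HNK, -1.08 with E2+ketamine and 0.50 with E2+(2S,6S)-HNK. After the GC and length correction these were -0.45, -0.41 and 0.77. It was 0.14 with ketamine, 0.14 with (2S,6S)-HNK, -0.50 with E2 and -0.73 with E2+(2R,6R)-HNK. The correction changed these to 0.51, 0.64, -0.034 and -0.20.

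The metallothionein transcripts MT1E and MT2A were set beside these 2 members. MT1E was at 77.0 and 73.6 CPM with vehicle, 115 and 120 with (2R,6R)-HNK, 128 and 125 with E2+ketamine, 21.8 and 21.5 with (2S,6S)-HNK, and 19.1 and 17.8 with E2+(2S,6S)-HNK. MT2A was at 307 and 293 CPM with vehicle, 479 and 482 with (2R,6R)-HNK, 505 and 540 with E2+ketamine, 199 and 202 with (2S,6S)-HNK, and 165 and 161 with E2+(2S,6S)-HNK. With E2, ketamine and E2+(2R,6R)-HNK, MT1E was at 59.4 and 57.6, 50.6 and 53.6, and 49.4 and 50.8 CPM. MT2A was there at 296 and 310, 273 and 278, and 344 and 353 CPM. E2+(2R,6R)-HNK had log2 fold changes of -0.59 in MT1E, -1.01 in SLC30A1 and 0.22 in MT2A (-0.97, -0.54 and 0.0087 after the correction). That of MT1L, of the same family, was 0.15 with (2S,6S)-HNK (-0.24 after the correction). MT1E and MT2A were both highest in the 2 conditions where SLC39A10 was lowest, and lowest in the 2 where SLC30A1 was lowest. As counted, their levels with (2R,6R)-HNK and E2+ketamine stood above vehicle and those of SLC30A1 did not, but after the GC and length correction all 3 genes did (MT1E by 0.24 and 0.21, MT2A by 0.44 and 0.48, SLC30A1 by 0.38 and 0.55 on the log2 scale). MTF1 itself ranged from 21.2 to 28.2 CPM over all libraries and was highest in vehicle. Its log2 fold change against vehicle was -0.39 with E2+ketamine and -0.34 with (2R,6R)-HNK, and from -0.26 to -0.11 in the other 5 treatments (-0.15, -0.16 and -0.13 to -0.056 after the correction). Metallothionein genes are near copies of each other, so their counts are uncertain where reads could be split between them. The values of SLC39A10 and the metallothioneins were part of the earlier results.

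**Figure D2:**
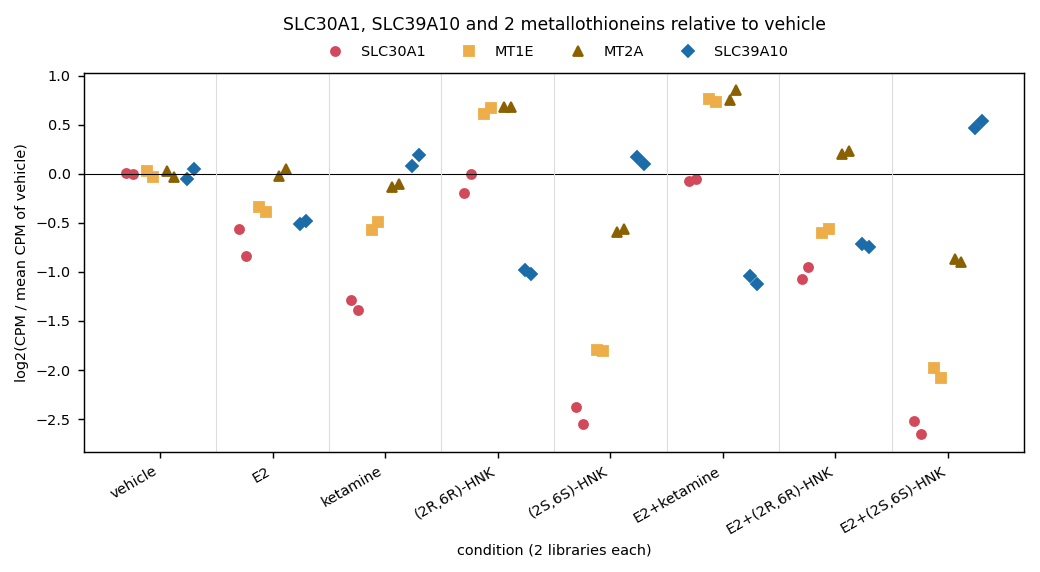
Level of SLC30A1, MT1E, MT2A and SLC39A10 in each of the 16 libraries as log2 of CPM over the mean CPM of vehicle (y axis), by condition (x axis); each symbol is a library. MT2A and MT1E lie above 0 with (2R,6R)-HNK and E2+ketamine, where SLC39A10 lies near -1, and SLC30A1 and MT1E lie lowest with (2S,6S)-HNK and E2+(2S,6S)-HNK.

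Over the 16 libraries, the gene whose log2 level was most like that of SLC30A1 was MT1E, with a Pearson r of 0.961 among 10373 genes with a mean of at least 5 CPM. It was followed by C17orf51 (0.929), ATF5 (0.907), NCOA5 (0.897) and MRPL46 (0.893). The genes most like SLC39A10 were MEAF6 (0.930), OPTN (0.912), TUBD1 (0.910), PAPSS1 (0.910) and SNX30 (0.901). The gene that ran most opposite to SLC39A10 was SMAP2 (-0.959). The values were -0.947 for MT1X, -0.937 for MT2A, -0.901 for MT1F, -0.817 for MT1E and -0.740 for SLC30A1. Of the other members, SLC39A1 was at -0.827 and SLC39A7 at -0.019. SLC39A6 was at 0.720, SLC30A5 at 0.652, SLC30A7 at 0.639, SLC30A9 at 0.551, SLC30A6 at 0.496 and SLC39A14 at 0.133. MTF1 was at 0.639. Replicate libraries share a condition here, so these are descriptions over 8 conditions. With Spearman's rank correlation none of the 5 genes named for SLC30A1 and 3 of the 5 for SLC39A10 stayed among the first 5. All these correlations were taken on levels as counted and were not repeated after the GC and length correction.

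The other exporters shared a pattern against vehicle. SLC30A5 was at 51.9 and 51.1 CPM in vehicle and between 32.1 and 47.1 in the treated libraries. SLC30A6 was at 49.2 in both vehicle libraries and between 26.9 and 37.2 elsewhere, and SLC30A7 was at 21.8 and 22.6 against 14.7 to 20.1. SLC30A9 stood farthest from its vehicle level, with 35.1 and 34.0 CPM in vehicle and 15.3 to 24.9 in the other libraries. In none of the 4 genes did a treated library reach the vehicle range, and E2+ketamine gave the lowest mean in each. All 14 treated libraries lay below both vehicle libraries for 7 of the 10 members, these 4, SLC39A6, SLC39A14 and, narrowly, SLC30A1, beside 26% of all genes, and nothing is read from this count. Their log2 fold changes against vehicle spanned -0.64 to -0.14 for SLC30A5, -0.84 to -0.44 for SLC30A6, -0.58 to -0.22 for SLC30A7 and -1.08 to -0.49 for SLC30A9.

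These 4 transcripts have a low GC content (36.3% to 38.1% of exon bases), and the correction for GC content and length altered their changes against vehicle. SLC30A9 kept its sign in all 7 comparisons, from -0.44 to -0.19. SLC30A6 ran from -0.15 to 0.054 and SLC30A5 from -0.022 to 0.24. SLC30A7 turned positive in all 7, from 0.12 to 0.30. The direction against vehicle therefore changed with the correction in all 7 comparisons for SLC30A7, in 5 for SLC30A5 and in 1 for SLC30A6.

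Among the importers, SLC39A6 stood lower than vehicle in every treated library. It was at 68.6 and 69.5 CPM in vehicle, 30.7 to 43.6 in 6 conditions, and 53.6 and 52.9 with E2+(2S,6S)-HNK. Its log2 fold changes ran from -1.15 with E2+ketamine to -0.37 with E2+(2S,6S)-HNK, and from -0.61 to -0.16 after the correction. SLC39A14 was at 232 and 241 CPM in vehicle and between 187 and 212 elsewhere, with fold changes of -0.31 to -0.16 that the correction barely moved (-0.36 to -0.16).

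SLC39A1 and SLC39A7 have the highest GC content of the 10, at 58.0% and 53.7%. SLC39A1 was at 138 and 136 CPM in vehicle and highest with E2+ketamine, at 216 and 214. It was lowest with E2+(2S,6S)-HNK, at 132 and 129, the only condition with a mean below vehicle, a direction that turned with upper-quartile normalization. Its fold changes ran from -0.067 to 0.65, and from -0.29 to 0.10 after the correction. SLC39A7 lay between 359 and 443 CPM, with the highest pair of libraries under E2+(2R,6R)-HNK (433 and 443). Its fold changes against vehicle ran from -0.076 to 0.21, and were negative in all 7 comparisons after the correction, from -0.36 to -0.049. Exons of SLC39A1 overlap those of CREB3L4 on the opposite strand over 280 bp and those of SLC39A7 overlap RXRB over 361 bp, and the sources used here do not say whether the counting used strand.

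**Figure D3:**
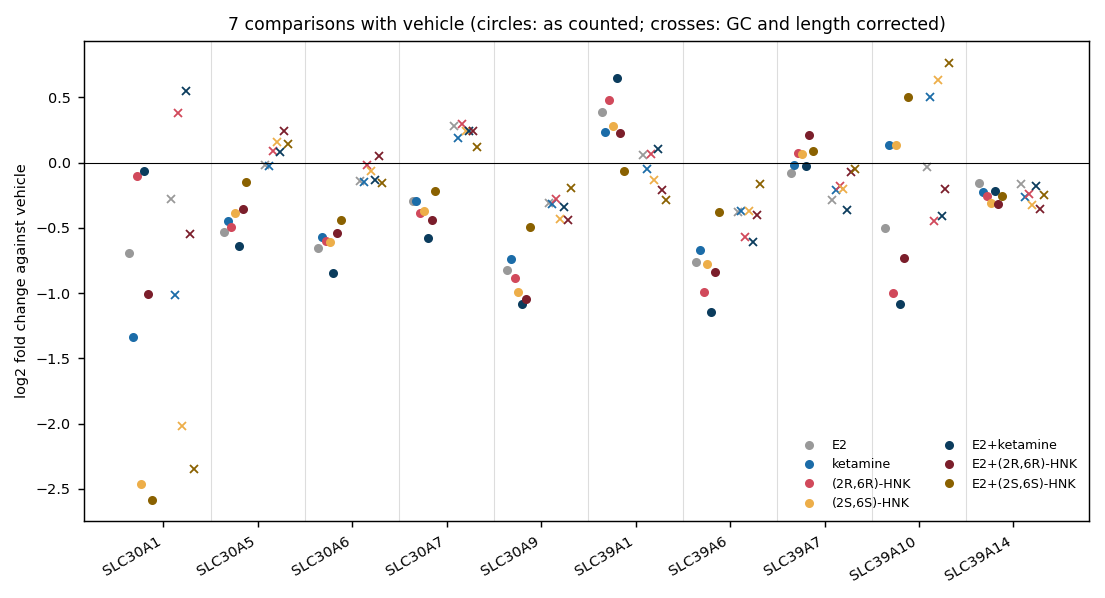
Log2 fold change of each member (x axis) against vehicle (y axis) in the 7 treatments, as counted (circles) and after the GC and length correction (crosses); colours mark the treatment. The 4 exporters SLC30A5, SLC30A6, SLC30A7 and SLC30A9 lie below 0 as counted, and of these only SLC30A9 lies below 0 in all 7 after the correction.

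Counts past an adjusted p of 0.05 against vehicle (edgeR) are given only beside the share of all genes in the same direction. They include SLC30A1 and are no evidence about the members, since these comparisons are taken to have entered the choice. With E2, 1 member was higher and 9 lower, beside 29.9% and 32.7% of all genes. With ketamine it was 2 and 7, beside 26.8% and 32.5%, and with (2R,6R)-HNK 2 and 7, beside 31.7% and 34.9%. (2S,6S)-HNK gave 3 and 7, beside 32.1% and 35.8%. E2+ketamine gave 1 and 7, beside 34.3% and 37.4%, E2+(2R,6R)-HNK 2 and 8, beside 33.4% and 36.3%, and E2+(2S,6S)-HNK 2 and 8, beside 24% and 35.7%. After the GC and length correction, 1 to 3 members were higher and 5 to 7 lower, beside 15.7% to 25.9% and 22.4% to 34.0% of all genes.

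Differences between compounds at the same dose and time hold no vehicle level, although the vehicle libraries enter the shared fit (its normalization, filter and estimate of spread). Each still equals the gap between the changes of its conditions against vehicle. The p-values below are therefore not independent of the choice of members. They were taken for the 9 members other than SLC30A1 in 6 pairs, 3 without and 3 with E2, with p-values adjusted over all 16004 genes in each pair and also over the 6 pairs together. Both adjustments made the same calls. Values of SLC39A10 were among the earlier results, so its differences are given with their intervals as a description, with no p-value, and its calls stay in the counts of 9.

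Among these 9 members, the mirror-image metabolites differed most in SLC39A10. It was 2.19-fold higher with (2S,6S)-HNK than with (2R,6R)-HNK, a log2 difference of 1.13 (95% interval 1.02 to 1.25). SLC39A6 was higher by 0.21 (0.12 to 0.31, adjusted p = 0.000114) and SLC30A5 by 0.11 (0.018 to 0.21, adjusted p = 0.0492). SLC39A1 was lower, at -0.20 (-0.26 to -0.14, adjusted p = 7.47e-08). Thus 3 of the 9 members were higher and 1 lower, beside 22.4% and 21% of all genes. For the 5 that did not pass, the intervals were -0.11 to 0.099 for SLC30A6, -0.13 to 0.15 for SLC30A7, -0.24 to 0.036 for SLC30A9, -0.11 to 0.0070 for SLC39A14 and -0.054 to 0.041 for SLC39A7. SLC30A1, as a description, was 5.12-fold lower with (2S,6S)-HNK (-2.36, interval -2.60 to -2.11). After the GC and length correction 2 were higher and 3 lower, beside 20.3% and 24.6% of all genes, with SLC30A9 (-0.16) and SLC39A14 (-0.085) now past the threshold. The call on SLC30A5 was lost with that correction (0.071, adjusted p = 0.221), with DESeq2 (adjusted p = 0.0922) and in 13 of the 16 fits without 1 library.

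(2R,6R)-HNK, set against ketamine, its parent drug, gave a difference in SLC39A10 of the same size, 2.19-fold lower (-1.13, -1.24 to -1.02). SLC39A6 was also lower (-0.33, -0.41 to -0.24, adjusted p = 1.84e-08). SLC39A1 (0.24, 0.19 to 0.30, adjusted p = 3.41e-10) and SLC39A7 (0.089, 0.041 to 0.14, adjusted p = 0.00143) were higher. That is 2 higher and 2 lower of 9, beside 22.6% and 22.8% of all genes. After the GC and length correction SLC39A6 (-0.20) and SLC39A1 (0.12) kept their calls at smaller sizes, and the difference in SLC39A10 was -0.95. The difference in SLC39A7 did not pass then (0.028, adjusted p = 0.252). None of the 4 exporters tested passed as counted, with intervals that all lay between -0.28 and 0.075, whereas after the correction SLC30A5 (0.11) and SLC30A6 (0.13) passed, which made 3 higher and 2 lower, beside 24.2% and 14.7% of all genes. SLC30A1, as a description, was 2.35-fold higher with (2R,6R)-HNK than with ketamine (1.23, 1.04 to 1.43).

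(2S,6S)-HNK and ketamine were close in SLC39A10, with a difference of 0.0011 and an interval of -0.10 to 0.11, although after the GC and length correction the difference was 0.13 (0.035 to 0.23). SLC30A9 (-0.25, -0.38 to -0.11, adjusted p = 0.00171), SLC39A6 (-0.11, -0.20 to -0.022, adjusted p = 0.0361) and SLC39A14 (-0.085, -0.14 to -0.029, adjusted p = 0.00993) were lower with (2S,6S)-HNK. SLC39A7 was higher (0.082, 0.034 to 0.13, adjusted p = 0.00338). This made 1 higher and 3 lower of 9, beside 24.2% and 22% of all genes. Of these 4, only SLC39A14 passed in the same direction after the correction (-0.056, adjusted p = 0.0491), when 2 members were higher and 2 lower, beside 23.8% and 17.6% of all genes. That call on SLC39A14 was lost with the replicate block added (adjusted p = 0.0506). SLC39A1 then turned to -0.080 and passed (adjusted p = 0.00538), as did SLC30A5 (0.18). The count of 4 was 1 without the second (2S,6S)-HNK library and 2 without either ketamine library. SLC39A6 lost its call without any 1 of the 4 libraries compared (adjusted p from 0.0784 to 0.130), SLC30A9 without the second (2S,6S)-HNK library (0.156), SLC39A14 without that one (0.124) or the second ketamine library (0.0612), and SLC39A7 without the first ketamine library (0.0818). SLC30A1 was 2.18-fold lower with (2S,6S)-HNK (-1.12, -1.38 to -0.87).

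With E2 present, SLC39A10 again separated the metabolites. It was 2.35-fold higher with E2+(2S,6S)-HNK than with E2+(2R,6R)-HNK (1.23, 1.13 to 1.34). SLC30A9 was higher by 0.55 (0.42 to 0.68, adjusted p = 3.34e-10), SLC39A6 by 0.46 (0.37 to 0.55, adjusted p = 5.34e-13), SLC30A7 by 0.22 (adjusted p = 0.00416) and SLC30A5 by 0.21 (adjusted p = 7.98e-05). SLC39A1 (-0.29, adjusted p = 1.82e-12) and SLC39A7 (-0.12, adjusted p = 1.01e-05) were lower. The count was 5 higher and 2 lower of 9, beside 25% and 29.1% of all genes. SLC30A7 lost its call without the first E2+(2R,6R)-HNK library (adjusted p = 0.0788) or the second E2+(2S,6S)-HNK library (0.136). After the GC and length correction SLC30A9 (0.25) and SLC39A6 (0.24) kept their calls and the difference in SLC39A10 was 0.97, while SLC30A5 and SLC30A7 turned to -0.098 and -0.13 and did not pass. SLC39A7 turned to 0.026 and did not pass either, and SLC39A1 passed at -0.077. Then 4 members were higher and 2 lower, beside 12.5% and 17.7% of all genes. The intervals for SLC30A6 (-0.0012 to 0.20) and SLC39A14 (0.0064 to 0.12, adjusted p = 0.0542) went with no call, but after the correction SLC30A6 turned to -0.21 and passed (adjusted p = 0.000266), and SLC39A14 passed at 0.10 (adjusted p = 0.000239).

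The largest difference between compounds in SLC39A10 was that of E2+(2S,6S)-HNK and E2+ketamine, 3.0-fold (1.58, 1.47 to 1.70). SLC39A6 (0.77, 0.68 to 0.86, adjusted p = 6.84e-21), SLC30A9 (0.59, adjusted p = 4.65e-11), SLC30A5 (0.49, adjusted p = 2.42e-13), SLC30A6 (0.40, adjusted p = 1.43e-09), SLC30A7 (0.36, adjusted p = 8.65e-06) and SLC39A7 (0.12, adjusted p = 2.32e-05) were higher as well. SLC39A1 was lower (-0.72, -0.78 to -0.66, adjusted p = 1.75e-27). Of the 9, 7 were higher and 1 lower, beside 35% and 31.7% of all genes, and the interval of SLC39A14 was -0.092 to 0.020. After the correction the difference in SLC39A10 was 1.17, and SLC39A6 (0.44), SLC39A1 (-0.39), SLC39A7 (0.31) and SLC30A9 (0.15) kept their calls, and the other 3 exporters did not pass. With SLC39A14 (-0.073) added, 4 were then higher and 2 lower, beside 25.2% and 30.8% of all genes.

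E2+(2R,6R)-HNK was compared with E2+ketamine last. SLC39A10 was higher with the metabolite by 0.35 (0.23 to 0.47), SLC39A6 by 0.31, SLC30A6 by 0.31, SLC30A5 by 0.28 and SLC39A7 by 0.24, with adjusted p of 1.03e-07, 1.75e-06, 1.28e-06 and 1.71e-12. SLC39A1 (-0.43, adjusted p = 3.19e-18) and SLC39A14 (-0.098, adjusted p = 0.00256) were lower. The 5 higher and 2 lower of 9 stood beside 26.7% and 25.3% of all genes. The same 7 passed in the same directions after the correction, beside 22.2% and 28.4%, but with other sizes. SLC39A10 was then at 0.21, SLC39A6 at 0.20, SLC30A6 at 0.18, SLC30A5 at 0.16 and SLC39A7 at 0.29. SLC39A1 was at -0.32 and SLC39A14 at -0.18. The call on SLC39A14 was lost without the first E2+(2R,6R)-HNK library (adjusted p = 0.0903). The intervals for SLC30A7 and SLC30A9 were -0.00010 to 0.28 and -0.10 to 0.18. SLC30A1 with E2 was 5.74-fold lower with (2S,6S)-HNK than with ketamine and 1.93-fold lower with (2R,6R)-HNK than with ketamine.

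**Figure D4:**
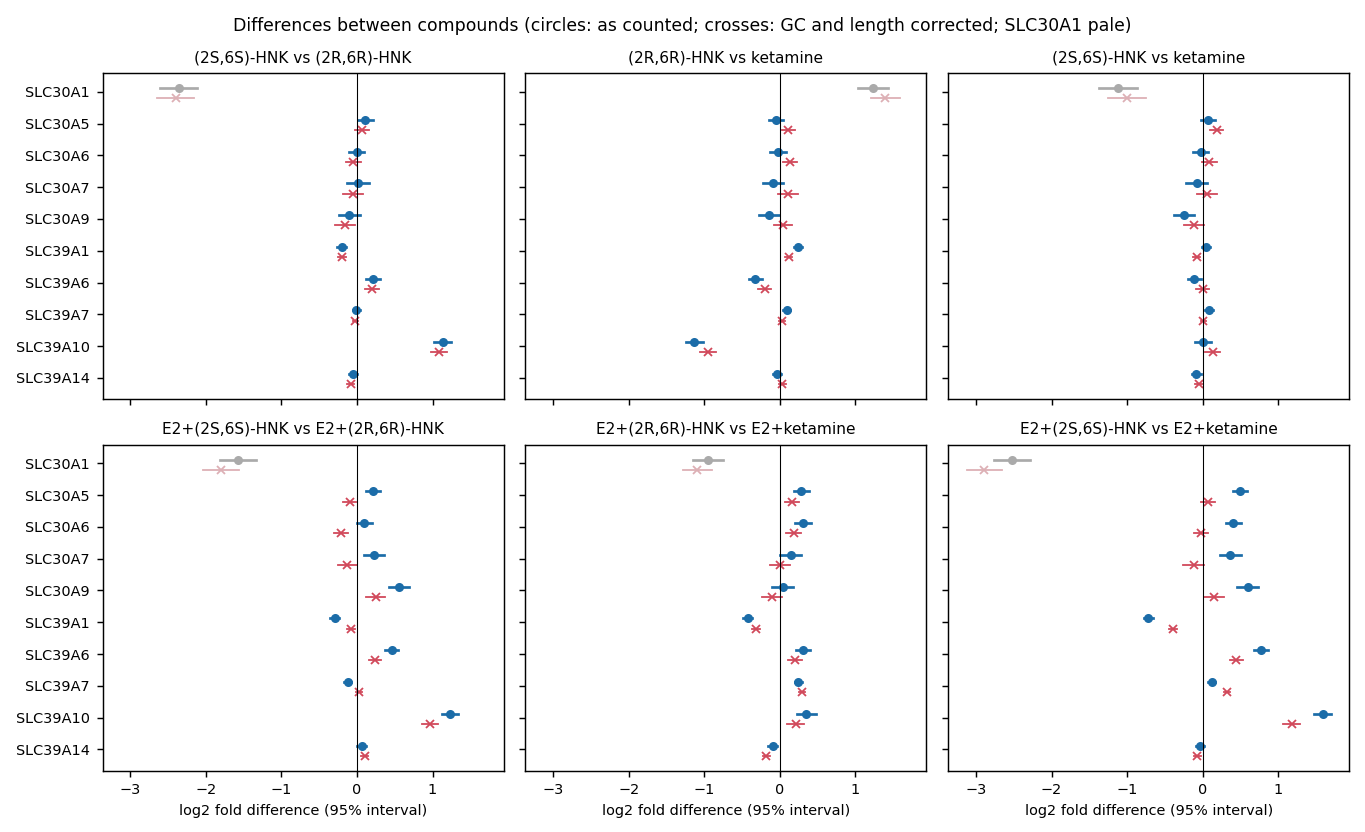
Log2 fold difference (x axis, with its 95% interval) of each member (y axis) between compounds in 6 pairs, as counted (circles) and after the GC and length correction (crosses); SLC30A1, drawn pale, is a description. As counted, SLC39A10 lies at 1.13 for (2S,6S)-HNK against (2R,6R)-HNK and at 1.23 for the same pair with E2, and near 0 for (2S,6S)-HNK against ketamine.

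The effect of E2 on cells given a drug was compared next, in the same fit and with the same limit on the p-values. Adding E2 to ketamine lowered SLC39A10 2.33-fold (-1.22, -1.33 to -1.10), with SLC39A6 (-0.48, adjusted p = 3.08e-13), SLC30A9 (-0.34, adjusted p = 1.57e-05), SLC30A7 (-0.29, adjusted p = 0.000316), SLC30A6 (-0.27, adjusted p = 1.02e-05) and SLC30A5 (-0.19, adjusted p = 0.000475) also lower. SLC39A1 was higher (0.42, adjusted p = 3.20e-18). In all, 1 was higher and 6 lower of 9, beside 27.3% and 30.2% of all genes. After the correction the difference in SLC39A10 was -0.91, SLC39A6 (-0.24) and SLC39A1 (0.16) kept their calls, and the 4 exporters lay between -0.025 and 0.10 and did not pass. SLC39A14 (0.088) and SLC39A7 (-0.16) then passed, so that 2 were higher and 3 lower, beside 25.0% and 17.7% of all genes. SLC30A1 was 2.42-fold higher with E2+ketamine than with ketamine, the opposite direction to SLC39A10.

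With E2 added to (2R,6R)-HNK, SLC39A10 was higher by 0.27 (0.15 to 0.38), SLC39A6 by 0.16 (adjusted p = 0.00307), SLC30A5 by 0.14 (adjusted p = 0.00984) and SLC39A7 by 0.14 (adjusted p = 1.79e-06), and SLC39A1 (-0.25, adjusted p = 1.39e-10) and SLC30A9 (-0.16, adjusted p = 0.0464) were lower. This was 4 higher and 2 lower of 9, beside 24.2% and 23.8% of all genes. The call on SLC30A9 was lost with DESeq2 (adjusted p = 0.0639), upper-quartile normalization (0.0511), no filter (0.0548) and in 8 of the 16 fits without 1 library, those without any 1 of the 4 compared among them. After the GC and length correction 4 were higher and 3 lower, beside 21.1% and 27.9% of all genes, with SLC39A14 (-0.12, adjusted p = 1.58e-05) added. The count of 6 fell to 3 without the second E2+(2R,6R)-HNK library, when SLC30A5 (0.0875) and SLC39A6 (0.0749) lost their calls too, and SLC30A5 also lost it without the first (2R,6R)-HNK library (0.0691). SLC30A1 was 1.87-fold lower with E2 (-0.91, -1.10 to -0.71).

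Adding E2 to (2S,6S)-HNK raised SLC30A9 by 0.50 (0.36 to 0.63, adjusted p = 1.12e-08), SLC39A6 by 0.40 (adjusted p = 5.49e-11), SLC39A10 by 0.36 (0.26 to 0.47), SLC30A5 by 0.24 (adjusted p = 1.90e-05) and SLC30A6 by 0.16 (adjusted p = 0.00544). SLC39A1 was lower (-0.34, adjusted p = 2.37e-14). The 5 higher and 1 lower of 9 stood beside 24.1% and 27.2% of all genes. SLC30A7 did not pass (0.16, 0.018 to 0.29, adjusted p = 0.0528), and turned to -0.13 after the GC and length correction. It passed with upper-quartile normalization (adjusted p = 0.0201), at least 10 counts in every library (0.0460) and the groups compared only (0.0408). SLC30A6 lost its call without the second (2S,6S)-HNK library (adjusted p = 0.132) or the second E2+(2S,6S)-HNK library (0.0718). After the correction the difference in SLC39A10 was 0.13, SLC30A9 (0.24), SLC39A6 (0.21) and SLC39A1 (-0.16) kept their calls, and SLC30A5 and SLC30A6 turned to -0.018 and -0.091 and did not pass. SLC39A7 (0.15) and SLC39A14 (0.071) passed, so that again 5 were higher and 1 lower, beside 11.1% and 20.3% of all genes. The difference in SLC30A1 was -0.12 (-0.40 to 0.16), and -0.33 (-0.61 to -0.050) after the correction.

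The drug effect seen with E2 less that seen without it, the interaction term, holds the vehicle level itself. It is therefore given as a description, with no p-value. SLC39A10 had terms of -0.72 (95% interval -0.88 to -0.56) for ketamine, 0.76 (0.60 to 0.93) for (2R,6R)-HNK and 0.86 (0.71 to 1.02) for (2S,6S)-HNK, and of -0.88, 0.28 and 0.16 after the GC and length correction. SLC30A1 had terms of 1.97 (1.70 to 2.25) for ketamine, -0.21 (-0.48 to 0.062) for (2R,6R)-HNK and 0.57 (0.23 to 0.92) for (2S,6S)-HNK. After the correction these were 1.84, -0.65 and -0.051. SLC39A6 had terms of 0.28, 0.92 and 1.16, and of 0.14, 0.54 and 0.58 after the correction.

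Of the other 14 genes of the 2 families, 10 passed the low count filter. The highest levels were those of SLC39A13 (113 to 229 CPM), SLC39A9 (73.8 to 104) and SLC39A3 (46.3 to 80.3), while SLC30A8 and SLC39A12 had no count in any library. Between the 2 metabolites without E2, 3 of the 10 were higher with (2S,6S)-HNK and 2 lower, beside 22.4% and 21% of all genes. SLC39A11 (0.27, adjusted p = 0.00437) and SLC39A9 (0.14, adjusted p = 0.00259) were among the higher, and SLC39A3 (-0.19, adjusted p = 0.000205) among the lower. The other lower gene, SLC30A2, had at most 19 counts in a library, so no fold is given. The median over the 10 was 0.022, against 0.0097 over all genes.

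Of 13 genes of zinc buffering and sensing, 9 passed the filter, and 4 were lower with (2S,6S)-HNK than with (2R,6R)-HNK and none higher, beside 21% and 22.4% of all genes. Metallothionein values were in view when the list was chosen, so this is a description and not independent evidence. The 4 were MT1E (-2.44, -2.54 to -2.35), MT1F (-1.83, -2.09 to -1.57), MT1X (-1.70, -1.92 to -1.48) and MT2A (-1.26, -1.32 to -1.20), with a median of -1.26 over the 9. The difference in MTF1 was 0.079 with an interval of -0.042 to 0.20. All 4 were also lower with (2S,6S)-HNK than with ketamine (MT1E -1.27, MT2A -0.46) and higher with (2R,6R)-HNK than with ketamine (MT1E 1.17, MT2A 0.80). Of the 9, 1 was higher and 5 lower with (2S,6S)-HNK than with ketamine, beside 24.2% and 22% of all genes. With (2R,6R)-HNK, 5 were higher and 1 lower than with ketamine, beside 22.6% and 22.8%. MTF1 was the lower one there (-0.24) and MT1L among the higher (0.21), and neither passed after the GC and length correction. Of 13 copper and iron transport and storage genes, all 13 passed the filter, and 1 was higher and 4 lower with (2S,6S)-HNK than with (2R,6R)-HNK, beside 22.4% and 21% of all genes. FTL, the ferritin light chain, had a difference of -0.42 (adjusted p = 1.47e-23) and TFRC, the transferrin receptor, of -0.25 (adjusted p = 2.49e-10), with a median of 0.026 over the list.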

How the data were processed

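RNA-seq libraries were made from amplified cDNA of HMC3 cells and sequenced as paired reads. The authors aligned them to hg19 with Tophat and Bowtie (TopHat2 2.0.14 and Bowtie2 2.2.6 in the submitters' processing notes) and counted uniquely mapped, non-discordant pairs per gene with featureCounts 1.4.6. The deposited values are raw counts per gene, without normalization. Use of strand in the counting is not given in the sources used here. Of counts between 1 and 9, 65.8% were even, so the counts were also halved.

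Counts were analysed in R 4.3.3 with edgeR 4.0.16 (filterByExpr, TMM, 1 quasi-likelihood fit of all libraries, with 8 group means). p-values were adjusted by Benjamini-Hochberg over all genes tested, at a threshold of 0.05. Levels are TMM-normalised CPM, and intervals are 95% intervals from the fit. For the GC and length correction, each library got a loess offset (span 0.5) on GENCODE gene models on GRCh37. DESeq2 1.42.0 and the other settings of the closing section were alternatives. Interaction terms of drug and E2 were fitted and are given without a p-value. Scripts were tested on simulated data.

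The members, lists and tests were chosen with earlier results of these data known. Named genes are all members, listed genes past the filter, and the 5 genes most like SLC30A1 and SLC39A10. Cell type markers, 2 family members with no count, 2 genes whose exons overlap a member's and SMAP2 are named besides, the last 5 chosen after the values were seen. The submitters' comparisons were not used.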

Additional observations from a re-analysis of the deposited data

Results flagged for a closer look

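For the members below, as counted, both libraries of a drug lay on one side of both vehicle libraries, and both libraries of the drug with E2 lay on the other side of both E2 libraries. Each value is the drug effect with E2 less that without it, on the log2 scale, from 2 libraries in each of 4 conditions. These differences were not tested, since the changes against vehicle are taken to have led to the choice of the members. For ketamine the terms were 1.97 for SLC30A1 and -0.72 for SLC39A10, and after the correction for GC content and exon length 1.84 and -0.88. For (2R,6R)-HNK they were 0.67 for SLC30A5, 0.71 for SLC30A6 and -0.64 for SLC39A1, and after the correction 0.17, 0.21 and -0.33. For (2S,6S)-HNK they were 0.77 for SLC30A5, 0.82 for SLC30A6, 1.32 for SLC30A9, -0.73 for SLC39A1 and 1.16 for SLC39A6, and after the correction 0.0025, 0.051, 0.55, -0.21 and 0.58. The opposite directions did not all remain after the correction. SLC30A5 then moved the same way with and without E2 for both metabolites, as did SLC30A6 and SLC39A1 for (2S,6S)-HNK. The corrected changes of SLC30A5 against vehicle were -0.020 with E2, 0.090 with (2R,6R)-HNK and 0.24 with E2+(2R,6R)-HNK. No condition holds enough libraries for a test of single outlying libraries.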

How the results depend on the processing

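The largest dependence was on the correction for GC content and exon length, which changed the sign of 48 of 190 log2 values of the members. Of these, 33 were past an adjusted p of 0.05 as counted, 6 only after the correction and 9 in neither. The first 39 are called reversed here. For the comparisons with vehicle, the interaction terms and SLC30A1, this threshold only sorts the values. It is no evidence about them, since the changes against vehicle and SLC30A1 are taken to have entered the choice of members. For SLC30A1 the reversed log2 values were against vehicle 0.38 with (2R,6R)-HNK and 0.55 with E2+ketamine, and -0.051 for the interaction of E2 and (2S,6S)-HNK. For SLC30A5 the reversed log2 values were against vehicle 0.090 with (2R,6R)-HNK, 0.16 with (2S,6S)-HNK, 0.079 with E2+ketamine, 0.24 with E2+(2R,6R)-HNK and 0.14 with E2+(2S,6S)-HNK, and 0.11 for (2R,6R)-HNK against ketamine, -0.098 for E2+(2S,6S)-HNK against E2+(2R,6R)-HNK, 0.10 for E2+ketamine against ketamine and -0.018 for E2+(2S,6S)-HNK against (2S,6S)-HNK. For SLC30A6 the reversed log2 values were against vehicle 0.054 with E2+(2R,6R)-HNK, and in other comparisons 0.13 for (2R,6R)-HNK against ketamine, -0.21 for E2+(2S,6S)-HNK against E2+(2R,6R)-HNK, -0.025 for E2+(2S,6S)-HNK against E2+ketamine, 0.020 for E2+ketamine against ketamine and -0.091 for E2+(2S,6S)-HNK against (2S,6S)-HNK. For SLC30A7 the reversed log2 values were against vehicle 0.28 with E2, 0.19 with ketamine, 0.30 with (2R,6R)-HNK, 0.24 with (2S,6S)-HNK, 0.24 with E2+ketamine, 0.24 with E2+(2R,6R)-HNK and 0.12 with E2+(2S,6S)-HNK, and -0.13 for E2+(2S,6S)-HNK against E2+(2R,6R)-HNK, -0.12 for E2+(2S,6S)-HNK against E2+ketamine, 0.052 for E2+ketamine against ketamine, -0.33 for the interaction of E2 and (2R,6R)-HNK and -0.41 for the interaction of E2 and (2S,6S)-HNK. For SLC39A1 the reversed log2 values were against vehicle -0.050 with ketamine, -0.13 with (2S,6S)-HNK and -0.21 with E2+(2R,6R)-HNK, beside -0.080 for (2S,6S)-HNK against ketamine. For SLC39A7 the reversed log2 values were against vehicle -0.18 with (2R,6R)-HNK, -0.20 with (2S,6S)-HNK, -0.075 with E2+(2R,6R)-HNK and -0.049 with E2+(2S,6S)-HNK, and 0.026 for E2+(2S,6S)-HNK against E2+(2R,6R)-HNK. With the replicate block added to the same correction the same 39 were reversed, each by a value within 0.0014 of that without the block (-0.052 for the SLC30A1 interaction of E2 and (2S,6S)-HNK). The cause of this dependence was not tested. SLC39A1 with E2+(2S,6S)-HNK against vehicle turned to 0.038 with upper-quartile normalization, which moved the median of all genes by 0.10 in that comparison, and to 0.0051 when only the groups compared were fitted, and SLC39A7 with ketamine against vehicle turned to 0.068 with upper-quartile normalization.

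The number of members past the threshold stayed within 1.5 times its value in all 16 comparisons counted under DESeq2, upper-quartile normalization, no filter, at least 10 counts in every library, the GC and length correction, the replicate block, counts halved in case both reads of a pair were counted, and a fit of the groups compared only. This number does not show which members passed or in which direction, so a steady number does not mean that the same calls held. For (2S,6S)-HNK against ketamine it was 4 as counted and 4 after the GC and length correction, with only SLC39A14 in both. For E2+ketamine against ketamine it went from 7 to 5, and no exporter tested passed after the correction. With 1 library left out, the lone library of its condition was assumed to vary like the others. The count then ranged from 1 to 4 for (2S,6S)-HNK against ketamine (4 with all libraries) and from 3 to 6 for E2+(2R,6R)-HNK against (2R,6R)-HNK (6 with all libraries), and stayed within 1.5 times its value elsewhere.

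The replicate numbers did not pair the samples. Deviations of same-numbered libraries from their group means correlated between -0.15 and 0.087 over 28 pairs of conditions (mean -0.0032, 10701 genes). With the replicate block all 16 counts stayed within 1.5 times their value, and 1 call on a member was lost, that on SLC30A5 between the metabolites (0.11, adjusted p = 0.0522). That call was also lost with no filter, with upper-quartile normalization, with DESeq2, on the groups compared only (adjusted p = 0.0846), with the GC and length correction and in 13 of the 16 fits without 1 library. With the block added to the GC and length correction, 1 further call was lost, that on SLC39A14 between (2S,6S)-HNK and ketamine (adjusted p = 0.0506).

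Among genes with a mean of at least 1 CPM, 3 of the 5 genes most like SLC30A1 and 4 of the 5 most like SLC39A10 stayed. In the window from 100 bases before the start to 50 after, 18.2% of promoters held a core. Counted by gene, 3 members held a core there in at least 1 promoter. The 2 libraries per condition limit the precision of every value.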
